A study of Mus musculus with 21 samples.

Results

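Embryonic stem cells with a haploid paternal genome were compared with round sperm, the haploid germ cells of the testis, on 12 of the 21 arrays of a mouse expression series. The members were chosen by array title: 9 arrays of androgenetic haploid embryonic stem (ahES) cells, 3 from each of the lines AH129-5, AH129-N1 and AH129-NC1, and 3 arrays of round sperm. Androgenetic means that the line descends from an embryo with a paternal genome alone. All 12 arrays carry the 129 Sv genetic background, and the labels name no transgene, mutation, age or number of animals for any of them. The ahES cells grew in N2B27 medium with 2 kinase inhibitors (2i) and LIF, whereas round sperm were taken fresh from testis without culture. On both sides haploid cells in G0/G1 were purified by fluorescence-activated cell sorting, and biotin-labelled RNA was hybridised to Affymetrix whole-genome mouse arrays, which probe the 3' part of transcripts. The other 9 arrays hold 6 of the diploid ES lines CS1-1 and R1 and 3 of embryonic fibroblasts (MEF). Their levels are given for orientation. They also enter the estimate of spread behind each SE and p-value, and the choice of probe set for each gene. The labels call the arrays of a group biological replicates but do not say that they came from separate cultures or animals. Each SE and p-value therefore measures only the spread between arrays of the same group. Differences among the 3 ahES lines do not enter them. Each ahES line may be 1 clone.

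Round spermatids are the haploid cells that follow the second meiotic division. They build the acrosome and the tail, and they exchange histones first for transition proteins and then for protamines, which compact the sperm nucleus. ES cells keep an open chromatin, divide rapidly and depend on a network of transcription factors around Pou5f1, Sox2 and Nanog. The X chromosome is transcriptionally silenced at male meiosis, and part of that silence persists in spermatids, whereas many X-linked housekeeping genes have an autosomal copy that is expressed in the testis.

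Levels are given as log2(signal + 9.73), where 9.73 signal units is the typical 20th percentile of an array. A level at or below 5.51, the average 40th percentile of the arrays, is called near background. A gene was called when its Benjamini-Hochberg adjusted p in limma was under 0.05 and its difference at least 2-fold. Differences are ahES cells minus round sperm on the log2 scale, so a negative value means a higher level in round sperm. A fold is written "at least" where the lower group was near background and was set to the background level.

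The arrays separated cleanly into the labelled groups. Across the 14757 tested genes the 3 round sperm arrays correlated with each other at 0.971 to 0.978 and the 9 ahES arrays at 0.968 to 0.985, while an ahES array and a round sperm array correlated at 0.193 to 0.226. All 10 round spermatid markers were above background in round sperm, with summed signals of 147207, 208564 and 222353, against 120 to 231 in the 9 ahES arrays, where 1 of the 10 was above background. All 6 pluripotency markers were above background in ahES cells, with summed signals of 51785 to 65458 against 722 to 774 in round sperm. The 3' to 5' difference of the Gapdh control probes was 0.55 ± 0.17 (SD, n = 3) in round sperm and -0.24 ± 0.08 (SD, n = 9) in ahES cells, and that of Actb was 0.74 ± 0.25 and 0.55 ± 0.07. The mean level of the poly-A spike controls was 7.40 ± 0.78 (SD, n = 3) in round sperm and 8.40 ± 0.07 (SD, n = 9) in ahES cells. Their part in the differences below was not tested.

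Most of the transcriptome differed. Of 18193 measured genes 14757 passed the filter on low values, and 10773 of those (73%) were called, 6024 (40.8%) higher in ahES cells and 4749 (32.2%) higher in round sperm. The array ranges of the 2 sides did not overlap for 10293 of the called genes, nor for 78.5% of all tested genes. The difference was at least 8-fold for 2631 of the genes higher in ahES cells and for 2215 of those higher in round sperm. Because a gene could pass the filter through its high side alone, list counts below are given against all measured members. The background shares of 40.8% and 32.2% are over tested genes, and both are smaller over all 18193 measured genes. They apply to every list below, also where they are not repeated. The median difference was 0.33 over tested genes and 0.03 over all measured genes. With arrays centred on their medians the tested median was 0.01, and with quantile normalization it was 0.10.

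The 12 largest rises in ahES cells included the pluripotency factors Nanog and Sox2 and the Nodal co-receptor gene Tdgf1. Nanog stood first, followed by the imprinted zinc-finger gene Plagl1 (difference 9.74), Sox2 (9.29), Atrx, an X-linked chromatin remodeller (9.28), Ccn2, a secreted matricellular protein (9.25), the X-linked Klhl13 (9.21) and Tdgf1 (9.15). The level of Nanog was 13.54, 13.76 and 13.94 at the lowest, median and highest ahES array, and 3.62, 3.82 and 4.46 on the round sperm arrays. All 3 sperm values were near background, and Nanog was at least 300-fold higher in ahES cells (difference 9.77, SE 0.20, adjusted p = 6.33e-19). Plagl1 read 14.10, 14.32 and 14.54 against 3.87, 5.83 and 4.04, which placed its second sperm array slightly above the background level and all 3 far below every ahES array. Its rise was at least 409-fold. The rest were Bex1 and Tceal9 on the X chromosome, Cth, an enzyme of cysteine synthesis, Fkbp9 and the ion channel Trpm1. Only 2 of these 12, Bex1 and Tceal9, were above background in round sperm, with sperm levels of 5.43, 5.92 and 6.27 for Bex1 and 3.78, 6.26 and 6.75 for Tceal9.

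The 12 largest falls included genes of spermatid chromatin and of the sperm tail. Tnp2, transition protein 2, had the largest difference among the probe sets chosen for each gene, falling from 14.52, 15.17 and 15.36 on the round sperm arrays to 3.42, 3.57 and 3.93 at the lowest, median and highest ahES array. Every ahES array was near background, so Tnp2 was at least 727-fold higher in round sperm (difference -11.42, SE 0.22, adjusted p = 1.33e-21). Hils1, a spermatid linker histone, was at least 624-fold higher and Hmgb4, a spermatid HMG-box protein, at least 498-fold higher in round sperm. Fabp9, a fatty-acid binding protein of the perforatorium, exceeded background by at least 766-fold, Spata4 by at least 957-fold and Meig1, needed for assembly of the tail manchette, by at least 786-fold. Gk2, a testis glycerol kinase, Cypt12, Hspb9, Crisp2 and Gm7444 completed the set with Prm1, protamine 1.

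**Figure D1:**
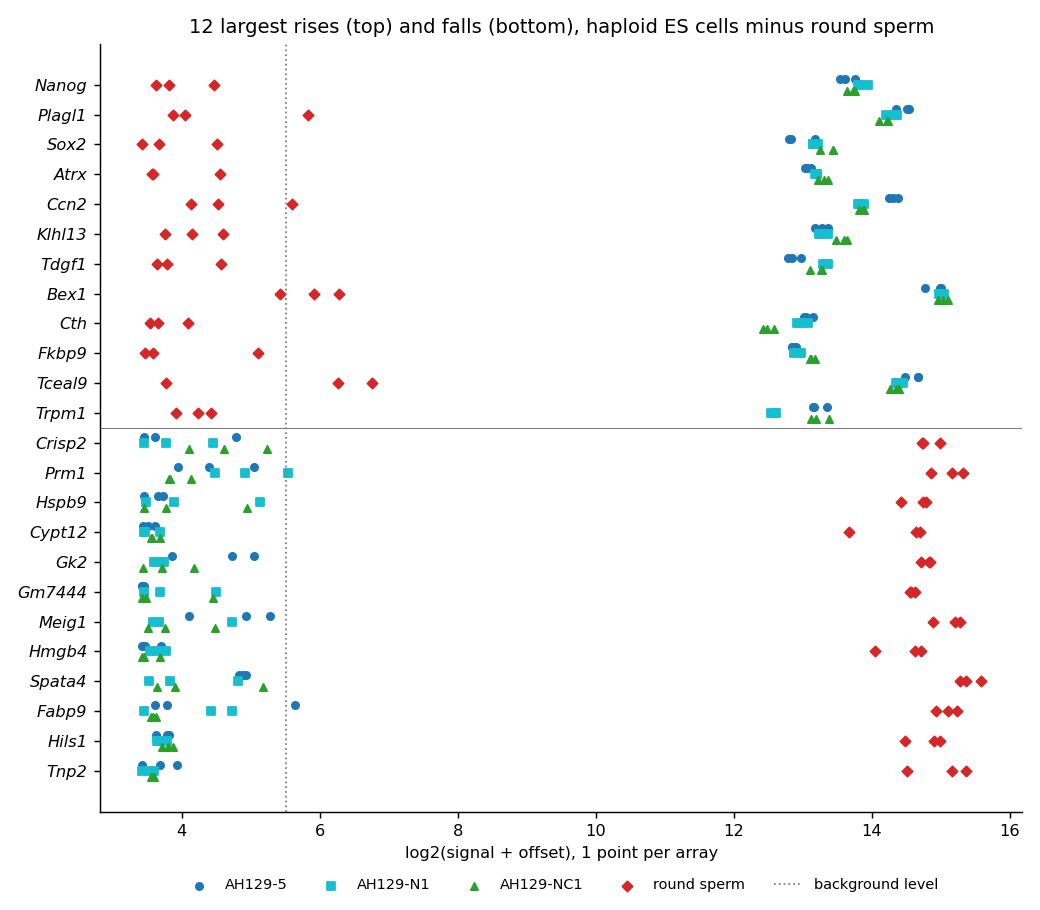
Level on each array, as log2(signal + offset), of the 12 genes with the largest rise and the 12 with the largest fall among called genes whose array ranges did not overlap. Blue, cyan and green points are the 9 ahES arrays, red diamonds the 3 round sperm arrays, and the dotted line the background level of 5.51. No gene shown had a point of one side within the range of the other.

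Genes for the proteins that pack the sperm nucleus were mostly higher in round sperm, against a background of 32.2%. Of 20 measured genes of spermatid chromatin 14 were higher in round sperm, 1 was higher in ahES cells, 4 were not called and 1 was not tested, and the median difference over the 20 was -5.21. Prm1 stood at 14.86, 15.17 and 15.33 in round sperm and at 3.82, 4.39 and 5.54 at the lowest, median and highest ahES array, and Prm2 at 14.77, 15.49 and 15.60 against 3.46, 4.34 and 5.85. No ahES array approached a sperm array for either protamine, and the bounds were at least 775-fold and at least 860-fold. The probe set taken for Tnp1, transition protein 1, read 9.90, 9.94 and 9.65 in round sperm and 4.02 to 6.06 in ahES cells. A second Tnp1 probe set gave a difference of -11.71 (SE 0.26) in place of -4.80 (SE 0.38), so the direction held for both while the size did not. Rnf8, a ubiquitin ligase that marks histones, went the other way with a difference of 3.06 (SE 0.07), and its sperm levels of 7.34, 7.19 and 7.22 were all below the lowest ahES array at 10.13. The 4 uncalled members were Pygo2, Smarca5, Kdm3a and Bptf.

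Transcription regulators of spermatids were mostly higher in round sperm too. Of 22 measured transcription regulators of spermatids 15 were higher in round sperm and 3 in ahES cells, with a median difference over the 22 of -3.94. Gtf2a1l, the germ-cell counterpart of a TFIIA subunit, had sperm levels of 14.19, 14.18 and 14.22 and ahES levels of 3.73 to 5.66, a rise in round sperm of at least 409-fold. Fhl5, the co-activator of CREM, rose at least 290-fold and Sox5 at least 151-fold in round sperm. Crem itself, which encodes the master activator of spermatid genes, depended on the probe set. The one with the highest mean over all arrays missed the 2-fold threshold (difference -0.30, SE 0.14, adjusted p = 0.048 in limma, sperm levels 7.84, 7.80 and 7.65, ahES levels 6.94 to 7.77). Another Crem probe set read 13.2, 13.3 and 13.3 in round sperm and 4.32, 5.40 and 5.56 at the lowest, median and highest ahES array, a difference of -8.00 (SE 0.26). Crem is known to be spliced into repressor and activator isoforms. Brwd1 (difference 4.37) and Gmcl1 (1.42) were higher in ahES cells by the chosen probe set, but each also had a probe set called higher in round sperm.

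CREM binds variants of the cyclic AMP response element, and Prm1 and Tnp1 are textbook targets. The promoters of 3 genes that fell and hold the palindromic letters TGANNTCA are given, with these letters in capitals. The sequences are from RefSeq (GRCm38.p6), on the coding strand, and cover the 250 bases before each transcription start. Prm1 lies at chr16:10796824-10797073, Tnp1 at chr1:73015900-73016149 and Hmgb4 at chr4:128260896-128261145, all on the minus strand. The letters begin 64 bases before the start in Prm1, 94 bases before it in Tnp1 and 74 bases before it in Hmgb4.
Prm1: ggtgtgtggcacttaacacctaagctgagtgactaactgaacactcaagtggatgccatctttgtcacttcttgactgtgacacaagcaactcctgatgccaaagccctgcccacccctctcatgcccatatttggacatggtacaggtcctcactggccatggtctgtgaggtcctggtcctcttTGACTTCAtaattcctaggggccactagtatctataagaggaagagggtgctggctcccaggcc
Tnp1: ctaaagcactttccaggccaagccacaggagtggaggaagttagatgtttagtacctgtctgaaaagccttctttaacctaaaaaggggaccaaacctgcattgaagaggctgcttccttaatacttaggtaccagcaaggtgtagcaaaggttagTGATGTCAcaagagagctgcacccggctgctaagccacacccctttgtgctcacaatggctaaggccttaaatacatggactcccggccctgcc
Hmgb4: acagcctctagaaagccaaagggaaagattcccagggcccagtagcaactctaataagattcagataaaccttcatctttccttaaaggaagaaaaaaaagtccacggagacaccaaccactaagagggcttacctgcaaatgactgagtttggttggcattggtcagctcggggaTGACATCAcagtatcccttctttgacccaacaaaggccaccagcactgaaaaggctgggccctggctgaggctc

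Such letters are common in promoters. RefSeq windows from 250 bases before to 50 after the start were matched for 3844 of the 4749 genes higher in round sperm, 4859 of the 6024 higher in ahES cells and 3175 of the 3984 not called. Letters were searched on both strands, and a gene counted when any of its windows held them. TGANNTCA was found for 16% of the genes higher in round sperm, 10.7% of those higher in ahES cells and 12.3% of the uncalled. Of all 27025 RefSeq genes with a window 15.9% held it. The full element TGACGTCA was found for 2.99%, 3.13% and 3.69% of the 3 classes and 2.03% of all genes. Of the 19 tested spermatid chromatin genes with a window 5 held TGANNTCA, and Prm2 and Tnp2 did not. The letters GTTGCCAT are part of the X-box known to be bound by RFX factors that act on cilium and flagellum genes. They were found for 2.97% of the genes higher in round sperm, 0.7% of those higher in ahES cells, 1.39% of the uncalled and 1.54% of all genes. Tekt1, a structural protein of flagellar microtubules, which was picked as an example after the search, is shown (chr11:72361883-72362132, minus strand), with the match to these letters on either strand in capitals. Of the 35 tested tail and axoneme genes with a window it was the 1 that held them, so the list was close to the 2.97% of all genes higher in round sperm. A match describes the sequence only and does not show that a site is bound.
Tekt1: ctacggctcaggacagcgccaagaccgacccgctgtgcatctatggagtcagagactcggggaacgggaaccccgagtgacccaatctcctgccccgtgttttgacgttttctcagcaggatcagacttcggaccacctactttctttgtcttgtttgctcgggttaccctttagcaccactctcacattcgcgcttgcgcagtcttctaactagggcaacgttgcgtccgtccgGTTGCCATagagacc

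Promoters of the 2 sides also differed in CG content. For a gene with several 300-base windows the window with most CG was counted. Genes higher in round sperm had a median of 16 CG dinucleotides (quartiles 6 and 26), genes higher in ahES cells 22 (14 and 30) and uncalled genes 21 (13 and 29). That count was 5 or fewer for 24.8% of the genes higher in round sperm, 7.39% of those higher in ahES cells and 10.1% of the uncalled. Over all tested genes with a window the median was 20 CG and this share 13.7%. Over all 27025 RefSeq genes with a window they were 8 CG and 41.8%, so genes higher in round sperm were poor in CG only beside other tested genes. Among the 50 largest falls 37 had a window, with a median of 5 CG, and among the 50 largest rises 38 had one, with a median of 17.

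The acrosome, the vesicle that carries the enzymes and receptors for fertilisation, was represented by 40 measured genes. Of these 39 were higher in round sperm, against 32.2% of all tested genes, and none was higher in ahES cells. The median difference was -7.95. Spaca1, an acrosomal membrane protein, read 13.89, 14.02 and 14.09 in round sperm and 3.44, 4.54 and 5.02 at the lowest, median and highest ahES array, a rise of at least 360-fold. Crisp2 was at least 636-fold, Adam3, needed for sperm to pass the oviduct, at least 365-fold and Lyzl6 at least 335-fold higher in round sperm. Acrv1 was at least 322-fold higher. The exception was Gopc, a Golgi protein, whose sperm levels of 8.33, 7.80 and 7.64 overlapped the ahES range of 8.20 to 8.96, although another probe set was called higher in ahES cells (1.33).

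Of 48 measured genes of the tail and its axoneme 41 were higher in round sperm, 1 was higher in ahES cells, 3 were not called and 3 were not tested, with a median difference over the 48 of -6.95. Tekt4, a tektin of the flagellar microtubules, stood at 13.88, 14.15 and 14.23 in round sperm against 3.88 to 6.07 in ahES cells, at least 370-fold higher. Meig1 was followed by Oaz3, an antizyme of the tail, at least 534-fold, and Ropn1l, a protein of the fibrous sheath, at least 735-fold higher in round sperm. The 3 probe sets of Odf1, an outer dense fibre protein, gave differences of -7.12, -8.44 and -10.15. Rsph4a, a radial spoke protein, was called higher in ahES cells (difference 2.02, SE 0.35), but its sperm levels were 3.86, 5.31 and 3.50, and the second of them overlapped the lowest ahES array at 5.24.

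Of 28 measured spermatid kinases, translation regulators and proteolysis genes 23 were higher in round sperm and 2 in ahES cells, with a median difference of -5.24. Tssk2, a testis-specific serine kinase, was at least 373-fold and Tssk3 at least 238-fold higher in round sperm. Rnf151, a ubiquitin ligase, was at least 377-fold higher. Pabpc2, a testis poly(A)-binding protein, read 14.63, 14.59 and 14.66 in round sperm and 4.80 to 6.28 in ahES cells (difference -9.03, SE 0.26). Dazl, an RNA-binding protein of germ cells, was higher in ahES cells, where its 9 arrays spanned 10.43 to 11.64 against 7.67, 9.02 and 8.51 in round sperm (difference 2.58, SE 0.16). Camk2b was higher in ahES cells by 1.49.

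**Figure D2:**
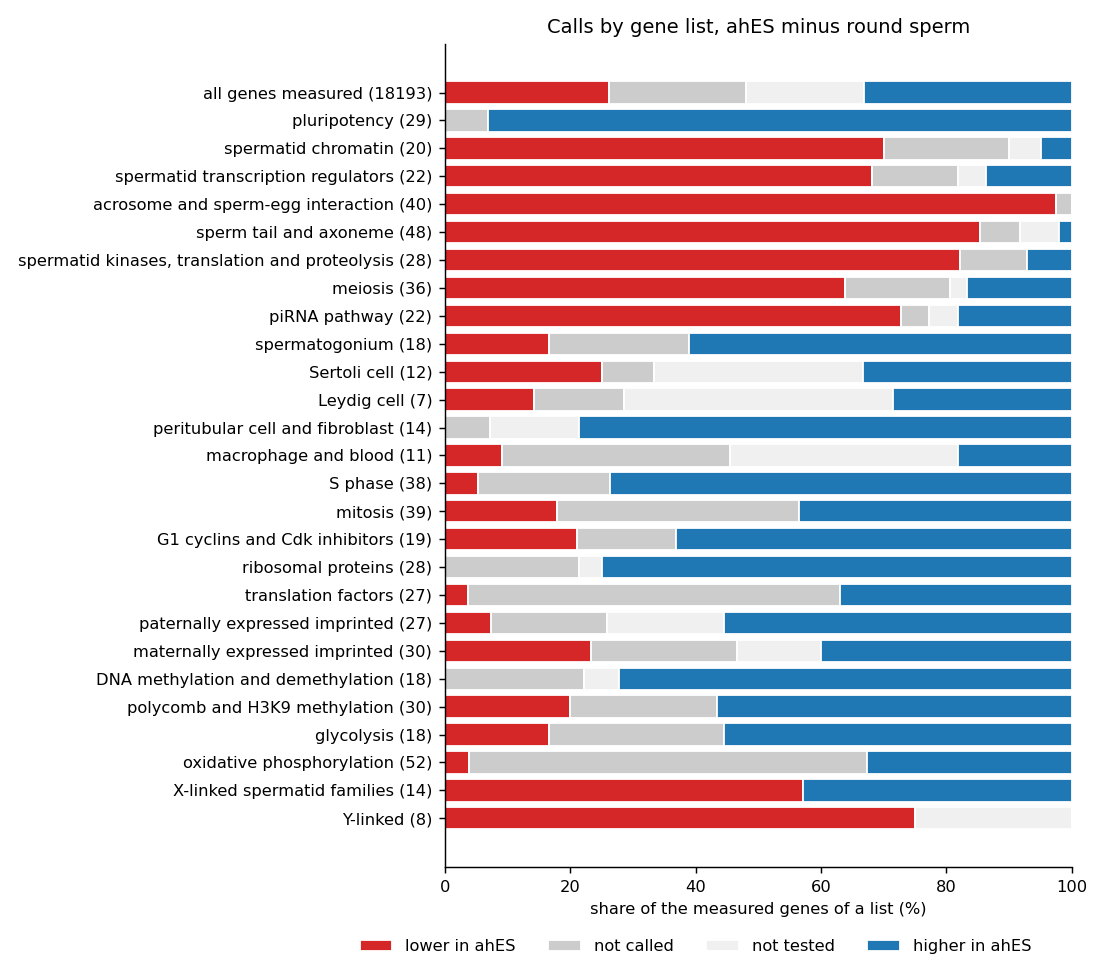
Share of the measured members of each gene list that were lower in ahES cells (red), not called (grey), not tested (light grey) or higher in ahES cells (blue), with the number measured in parentheses. The top bar is all 18193 measured genes. The acrosome list has 39 of 40 members in red and the pluripotency list 27 of 29 in blue.

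Genes of the earlier germ line were also present in round sperm. Of 36 measured meiosis genes 23 were higher in round sperm and 6 in ahES cells, with a median difference of -2.03 over the 35 that were tested. Sycp1, a protein of the synaptonemal complex, stood at 12.29, 12.25 and 12.17 in round sperm and at 5.12, 5.44 and 6.45 at the lowest, median and highest ahES array (difference -6.60, SE 0.26). Syce3, of the same complex, was at least 166-fold and Ccna1, a meiotic cyclin, at least 164-fold higher in round sperm, and Hspa2 differed by -5.92 (SE 0.10). All 6 spermatocyte markers were above background in round sperm, with summed signals of 11768, 10501 and 10329. In ahES cells 4 of the 6 were above background, with sums of 762 to 1838. The means of Hormad1 (9.06 in round sperm, 8.56 in ahES cells) and Dmc1 (6.79 and 6.46) were close. Whether the meiotic transcripts in round sperm lie in the haploid cells or in others that passed the sort was not tested. In bulk RNA fewer cells of a type and less RNA per cell cannot be told apart. The meiosis genes higher in ahES cells included Trip13, an ATPase of the recombination checkpoint (difference 5.03, SE 0.06), Mnd1, a recombination factor (4.70, SE 0.14), and Rec114 (3.48, SE 0.11) and Mei4 (2.57, SE 0.25), which promote meiotic DNA breaks.

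The piRNA pathway silences transposons in germ cells. Of its 22 measured genes 16 were higher in round sperm and 4 in ahES cells, with a median difference over the 22 of -3.06. Mael read 14.73, 14.53 and 14.54 in round sperm and 6.28 to 7.38 in ahES cells (difference -7.69, SE 0.15). The RNA helicase gene Ddx4 differed by -6.89 (SE 0.13) and Tdrd7, a tudor-domain protein of germ granules, by -6.46 (SE 0.15), and both were above background on the ahES side. Tdrd1 was at least 8.69-fold higher in round sperm. Tex19.1, which represses transposons in germ cells and ES cells, had the opposite direction, with 11.94, 12.08 and 12.34 in ahES cells against 6.18, 6.76 and 6.36 (difference 5.70, SE 0.10).

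Of 18 measured genes of spermatogonia, the stem and progenitor cells of the testis, 11 were higher in ahES cells and 3 in round sperm, with a median difference of 1.61. The list holds genes that ES cells also use. Etv5, a transcription factor downstream of growth signals, differed by 7.32 (SE 0.07), Sall4 by 8.82 (SE 0.27) and the receptor gene Kit by 4.34 (SE 0.20), and Lin28a was at least 9.89-fold higher in ahES cells. The 3 genes higher in round sperm were low there: Bcl6b at 6.95 to 7.10, Gfra1 at 6.59, 6.30 and 6.63, and Sohlh1 at 6.72, 6.06 and 6.28. In the fit without the first AH129-NC1 array Gfra1 missed the 2-fold threshold, with a difference of -0.99. With an offset of 32 signal units Gfra1 (-0.81) and Sohlh1 (-0.97) both missed it.

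Markers of Sertoli, Leydig and blood cells were low in round sperm. The summed signal of the 6 Sertoli cell markers was 286, 217 and 246 in round sperm and 60.7 to 165 in ahES cells, and 4 of the 6 were above background in round sperm, none above a level of 6.09. The 4 measured Leydig cell markers summed to 263, 198 and 289 in round sperm and 216 to 391 in ahES cells, and the 4 measured macrophage and blood markers to 314, 307 and 280 against 837 to 1799. Of 12 measured genes of the Sertoli cell list 4 were higher in ahES cells and 3 in round sperm, and of 7 of the Leydig cell list 2 and 1. Peritubular and fibroblast markers were higher on the other side. Of 14 measured genes of that list 11 were higher in ahES cells and none in round sperm, with a median difference over the 14 of 2.82. Col3a1 differed by 6.88, Vim by 6.32 and Col1a2 by 6.23. The summed signal of the 5 markers was 9722 to 13409 in ahES cells, 641, 1008 and 1099 in round sperm and 82893 on average in MEF, the cells commonly used as feeders. In round sperm 4 of these 5 were above background, with Acta2 at a mean of 8.88 and Dcn at 7.73. The part of carried-over fibroblasts in the ahES values was not tested.

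Of 29 measured pluripotency genes 27 were higher in ahES cells, against 40.8% of all tested genes, and none was higher in round sperm. The median difference was 6.19. Pou5f1 stood at 13.51, 13.63 and 13.74 at the lowest, median and highest ahES array and at 6.95, 7.34 and 7.35 in round sperm, which was above background (difference 6.43, SE 0.09). Zfp42, a marker of the naive state, read 13.06, 13.53 and 13.82 against 9.03, 8.64 and 8.45, a 27.5-fold difference. Sox2 was at least 202-fold, Tdgf1 at least 199-fold and Sall4 at least 213-fold higher in ahES cells. Dppa5a differed by 8.78 (SE 0.08). Dppa3, a maternal factor that guards DNA methylation, had its lowest ahES array at 10.71, its median at 12.52 and its highest at 13.24, a spread that followed the lines. The 2 exceptions were Klf4 and Utf1. Klf4, which acts in ES cells and in post-meiotic germ cells, was at 13.35, 13.14 and 13.11 in round sperm and at 13.13 to 13.57 in ahES cells, so the ranges overlapped (difference 0.12, SE 0.06, adjusted p = 0.069).

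Pairs of a widely expressed gene and a testis counterpart set 2 forms of one function side by side. In 17 of 26 measured pairs the general member was higher in ahES cells and the testis member higher in round sperm. The testis member was higher in round sperm in 23 pairs and the general member higher in ahES cells in 20. Pgk1, the X-linked phosphoglycerate kinase of glycolysis, read 14.39, 14.63 and 14.88 in ahES cells and 8.23, 8.97 and 8.92 in round sperm (difference 5.91, SE 0.10). Pgk2, its autosomal retrogene, read 3.83, 4.16 and 5.62 in ahES cells and 14.01, 14.17 and 14.26 in round sperm, at least 398-fold higher there. Neither member of the pair had overlapping ranges.

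The promoters of that pair differ in CG content, and the 250 bases before each start are given from RefSeq (GRCm38.p6) with every CG in capitals. Pgk1 lies at chrX:106186850-106187099 on the plus strand with 17 CG, and Pgk2 at chr17:40208610-40208859 on the minus strand with 3. CG methylation was not measured here.
Pgk1: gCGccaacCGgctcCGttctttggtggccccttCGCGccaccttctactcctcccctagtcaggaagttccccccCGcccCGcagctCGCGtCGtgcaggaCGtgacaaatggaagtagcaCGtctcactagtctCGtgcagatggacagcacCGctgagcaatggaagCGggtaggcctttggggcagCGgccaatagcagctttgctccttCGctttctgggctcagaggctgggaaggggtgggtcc
Pgk2: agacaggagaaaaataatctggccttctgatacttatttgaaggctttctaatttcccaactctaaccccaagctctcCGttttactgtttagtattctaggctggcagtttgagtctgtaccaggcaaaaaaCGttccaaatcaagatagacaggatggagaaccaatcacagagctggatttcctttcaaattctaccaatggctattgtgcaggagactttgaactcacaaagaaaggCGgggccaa

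In 8 of the 26 pairs the general member is X-linked, and all 8 were higher in ahES cells by the chosen probe set. Of all tested X-linked genes 69.8% were higher in ahES cells. Pdha1, a subunit of pyruvate dehydrogenase, differed by 7.29 (SE 0.09) and its autosomal copy Pdha2 by -5.31 (SE 0.20), and both copies were above background in ahES cells, Pdha2 at 7.26, 7.83 and 8.22. The diploid ES mean of Pdha2 was 4.50. Prps1, of nucleotide synthesis, differed by 4.54 and Prps1l1 by -8.00, while the centrins Cetn2 and Cetn1 differed by 4.02 and -6.60, and the cohesin subunits Smc1a and Smc1b by 6.05 and -4.18. Utp14a and Utp14b, for ribosome assembly, differed by 2.35 and -1.96. The testis members of the other 2 X-linked pairs were not called: Rbmxl2 at -0.62 beside Rbmx at 2.73, and Cstf2t at 0.96 beside Cstf2 at 5.25, both genes of RNA processing. Without the first round sperm array Cstf2t differed by 1.09 and was called. One of the other Cstf2 probe sets was called higher in round sperm (-1.24, SE 0.12).

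Of the 18 pairs with an autosomal general member 12 had it higher in ahES cells and 17 had the testis member higher in round sperm. Ldha, a lactate dehydrogenase, was not called (difference -0.22, SE 0.06), with 14.21, 14.44 and 14.53 in round sperm overlapping the ahES range of 13.83 to 14.40, whereas Ldhc differed by -8.43 (SE 0.20). Slc25a4, the mitochondrial ADP/ATP carrier, differed by 7.65 and its testis form Slc25a31 by -2.88. The chaperones Hspa8 and Hspa1l differed by 5.74 and -8.81 and the cytochromes Cycs and Cyct by 4.75 and -2.59. For the TATA-binding protein both forms were higher in round sperm, Tbp by -2.51 (SE 0.09) and Tbpl1 by -4.17 (SE 0.09), although a second Tbpl1 probe set gave 3.32 (SE 0.09). The proteasome subunit Psma8 was not called (difference -0.34) beside Psma7 at 4.84.

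**Figure D3:**
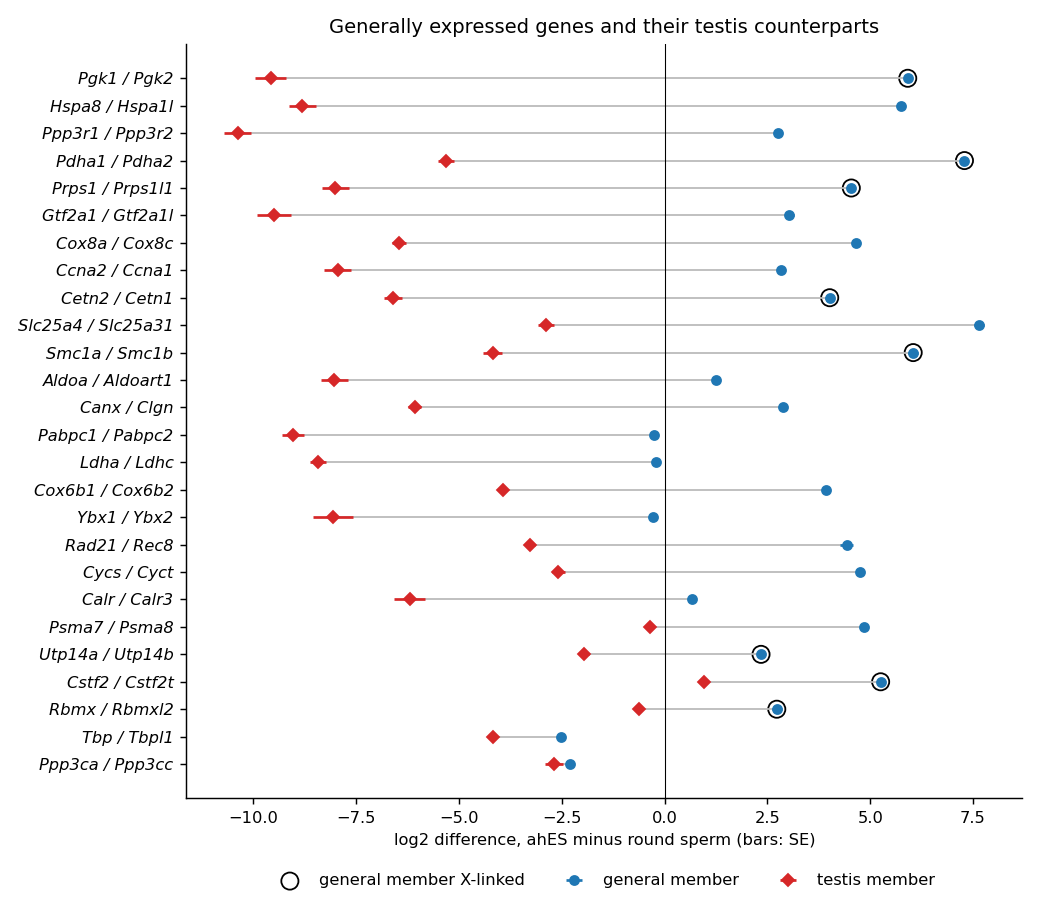
Difference between ahES cells and round sperm on the log2 scale, with its SE, for 26 pairs of a widely expressed gene (blue circle) and its testis counterpart (red diamond), sorted by the distance between both. Black rings mark the 8 X-linked general members, and all 8 lie to the right of 0. Of all tested X-linked genes 69.8% were called higher in ahES cells.

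The X chromosome stood apart from every autosome. Of 617 measured X-linked genes 506 were tested, 353 (69.8%) were higher in ahES cells and 80 (15.8%) higher in round sperm. The share higher in ahES cells was 39.9% over 14153 tested autosomal genes. The median difference was 2.85 for X-linked genes and 0.28 for autosomal genes. The gap between them was 2.57, which is 5.94-fold. The medians of the 19 autosomes lay between 0.05 and 0.60. On each array the median X-linked level minus the median autosomal level was -1.76 ± 0.08 (SD, n = 3) in round sperm and 0.76 ± 0.06 (SD, n = 9) in ahES cells, with -0.62 ± 0.08 (SD, n = 6) in diploid ES cells and -0.44 ± 0.03 (SD, n = 3) in MEF. The tested genes were chosen by their levels in ahES cells or round sperm, and over all measured genes these 4 values were -1.24, 0.71, -0.53 and -0.23. Without the filter the gap between the medians of the differences was 1.92. Of the X-linked genes tested 36.8% were near background in round sperm, against 14.7% of the autosomal genes.

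Housekeeping genes of the X chromosome showed the gap individually. Rps4x, a ribosomal protein, was at 14.98 to 15.38 in ahES cells and at 6.08, 6.55 and 6.90 in round sperm (difference 8.70, SE 0.11), and Eif2s3x, a translation initiation factor, at 13.96 to 14.23 against 7.88, 6.14 and 6.39 (difference 7.27, SE 0.22). Xist, the RNA that coats an inactive X chromosome, read 9.07, 9.31 and 9.99 in ahES cells by the chosen probe set. Round sperm read 6.24, 6.38 and 6.14 there (difference 3.22, SE 0.10), with a diploid ES mean of 9.1 and a MEF mean of 12.8. Another Xist probe set was also called higher in ahES cells, but its ahES mean of 5.53 was barely above the background level of 5.51. The remaining Xist probe set was near background in ahES cells, at a mean of 5.27, and was not tested. The level of Xist in ahES cells thus depended on the probe set. Of 14 measured genes of X-linked spermatid families 8 were higher in round sperm and 6 in ahES cells. Cypt1, a cysteine-rich nuclear protein of spermatids, was at least 217-fold and Akap4, the anchoring protein of the fibrous sheath, at least 246-fold higher in round sperm. Magea4 and Magea5, cancer-testis genes, were higher in ahES cells by at least 23.3-fold and by 5.56 on the log2 scale, respectively. Their diploid ES means were 5.35 and 5.09.

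All 7 tested genes of the Y chromosome were higher in round sperm, 6 of them near background in ahES cells. A haploid genome holds a single sex chromosome, whereas spermatids of a testis are a mixture of X-bearing and Y-bearing cells. Eif2s3y read 10.68, 10.51 and 10.38 in round sperm against 4.63 to 5.88 in ahES cells, at least 30-fold higher, and Uba1y was at least 14.6-fold, Zfy2 at least 8.4-fold, Usp9y at least 6.72-fold and Uty at least 4.12-fold higher. The Y genotype of the lines is not given in the labels.

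**Figure D4:**
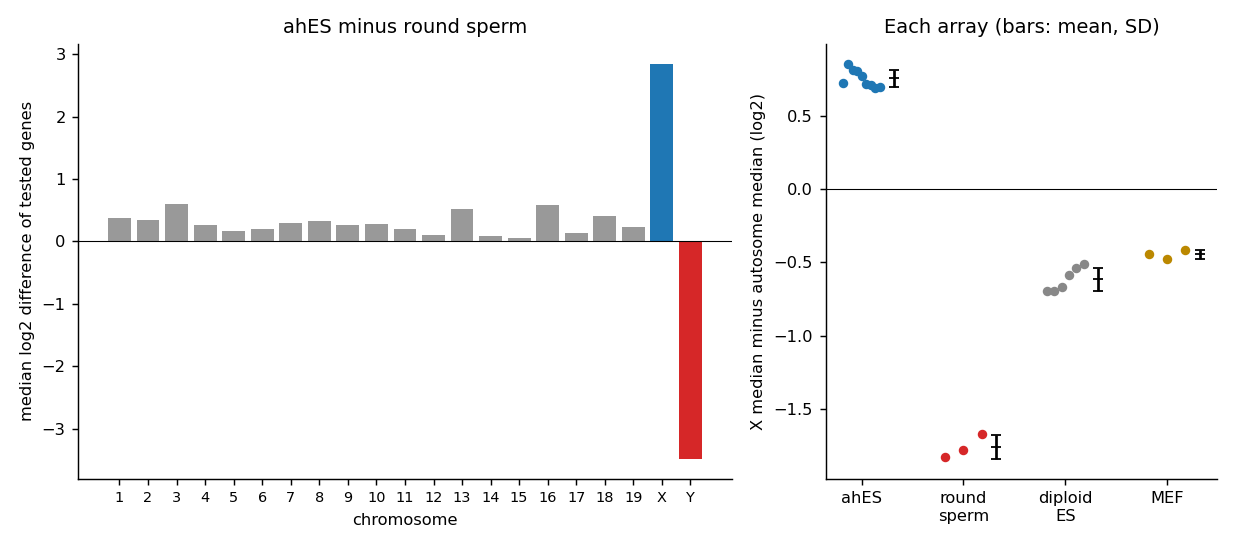
Left, the median log2 difference (ahES minus round sperm) of the tested genes of each chromosome: 0.05 to 0.60 for the 19 autosomes (grey), 2.85 for the X (blue) and -3.49 for the Y (red). Right, the median X-linked minus the median autosomal level of each of the 21 arrays, with the mean and SD of each group beside the points. The 9 ahES arrays lie above 0 and the 3 round sperm arrays lowest.

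Both cell populations were sorted in G0/G1, but their cell cycle genes differed. Of 38 measured S-phase genes 28 were higher in ahES cells and 2 in round sperm, with a median difference of 2.63. Cdt1, which licenses replication origins, read 13.44, 13.52 and 13.60 in ahES cells and 4.66, 6.10 and 6.52 in round sperm (difference 7.76, SE 0.23). The helicase subunits Mcm3 and Mcm4 differed by 6.79 and 6.40, and Pola1, an X-linked DNA polymerase subunit, was at least 64.5-fold higher in ahES cells. Mitosis genes were more evenly split, with 17 of 39 higher in ahES cells, 7 higher in round sperm and 15 not called, and a median difference of 0.75. The share higher in ahES cells, 43.6%, was near the 40.8% of all tested genes. Cenpa, the centromeric histone, differed by 6.75, the checkpoint gene Mad2l1 by 5.69 and the spindle motor gene Kif11 by 4.38. Ccnb2, a mitotic cyclin, was higher in round sperm, at 13.73, 13.94 and 13.69 against 12.03 to 12.49 in ahES cells (difference -1.49, SE 0.05), as were Foxm1 (-2.33) and Nuf2 (-2.02). The mitotic kinase Aurka was higher in round sperm by its chosen probe set (-1.61) and higher in ahES cells by another (3.10).

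Of 19 measured G1 cyclins, kinases and inhibitors 12 were higher in ahES cells and 4 in round sperm. Ccnd1 differed by 5.49, Cdk4 by 5.79 and Mycn, a growth regulator, by 7.67. The 4 genes higher in round sperm restrain the cycle: Cdkn2c (difference -4.55, SE 0.12), Cdkn1c (-3.75, SE 0.28), Rbl2 (-2.61, SE 0.11) and Cdkn2d (-1.75, SE 0.10). Other inhibitor or Rb-family genes of the list were among the 12 higher in ahES cells, so it did not split by function. Cdkn2c stood at 11.84, 11.96 and 11.89 in round sperm and at 6.66 to 7.75 in ahES cells.

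Of 28 measured ribosomal protein genes 21 were higher in ahES cells and none in round sperm, with a median difference over the 28 of 1.62. Over the 27 tested the median level was 14.86 in ahES cells and 13.08 in round sperm. Only 2 of them, Rpl14 and Rps6, were near background in round sperm. Rpl14 was at least 30.9-fold and Rps6 at least 18-fold higher in ahES cells. Their ahES means of 10.46 and 9.72 were far below the median of the list. Among 27 translation factors 10 were higher in ahES cells, close to a share of 40.8%, and 1 in round sperm. Glycolysis genes were divided: 10 of 18 were higher in ahES cells and 3 in round sperm. Slc2a1, a glucose transporter, was at least 197-fold higher in ahES cells and Hk2, a hexokinase, differed by 7.01 (SE 0.20). Hk1, the hexokinase with a spermatogenic form, was higher in round sperm at 13.58, 13.72 and 13.87 against 9.84 to 10.50 (difference -3.63, SE 0.06), as were Eno3 (-3.04) and Pfkm (-2.77). The neuronal-type glucose transporter Slc2a3 did not differ by 2-fold (difference 0.18, SE 0.06), although another probe set was called higher in ahES cells (1.39). Of 52 oxidative phosphorylation genes 17 were higher in ahES cells, 2 were higher in round sperm and 33 were not called, with a median difference of 0.34 beside 0.33 for all tested genes.

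Imprinted genes are expressed from the maternal or the paternal copy alone. The ahES lines hold a paternal genome alone, whereas spermatids come from a diploid germ line in which imprints are erased and set anew. Of 27 measured genes listed as paternally expressed 15 were higher in ahES cells and 2 in round sperm. Of 30 measured genes listed as maternally expressed these counts were 12 and 7. The paternal list also holds Trappc9, Zim1 and Copg2, which are reported as maternally expressed in mouse. Its counts and median therefore do not describe paternally expressed genes alone. The medians over all measured members were 1.38 and 0.17. Of the 26 maternally expressed genes tested, those 12 and 7 are 46.2% and 26.9%, beside 40.8% and 32.2% of all tested genes. Peg3 stood at 10.88 to 12.09 in ahES cells and at 5.41, 5.41 and 6.13 in round sperm (difference 5.64, SE 0.12). Impact differed by 6.76 (SE 0.11), Slc38a4, an amino acid transporter gene, was at least 25.2-fold higher, and Igf2, a growth factor gene, differed by 2.44 (SE 0.12), or 0.94 and not called with probe sets averaged. Rasgrf1, an exchange factor gene, was higher in round sperm, at 10.25, 9.81 and 9.85 against 3.79 to 5.27, at least 22.1-fold, and Trappc9 differed by -2.55, or -0.55 and not called with probe sets averaged. Of the maternally expressed genes the non-coding RNAs Meg3 and Rian were higher in ahES cells, by 5.52 (SE 0.09) and at least 53-fold. Asb4 was at least 84.5-fold higher in round sperm and Atp10a differed by -5.83 (SE 0.22). In diploid ES cells the means of Peg3, Meg3 and Rian were 11.08, 12.73 and 11.63.

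Of 18 measured genes of DNA methylation and its removal 13 were higher in ahES cells and none in round sperm, with a median difference over the 18 of 2.19. Tet1, a 5-methylcytosine oxidase, was at least 92.7-fold higher, Tet2 differed by 6.14 (SE 0.11) and the methyltransferase gene Dnmt3b by 5.85 (SE 0.13). Dnmt3l, a cofactor used in germ cells and ES cells, was not called: its sperm levels of 9.82, 9.69 and 9.78 lay inside the ahES range of 8.89 to 10.82. Polycomb and H3K9 methylation genes were divided, with 17 of 30 higher in ahES cells and 6 in round sperm. Rbbp7 (difference 6.04) and the ubiquitin ligase gene Rnf2 (5.87) were higher in ahES cells, although 3 other Rnf2 probe sets were called higher in round sperm (-1.94, -1.07 and -1.07). Phf1 (-4.13) and Ring1 (-2.48) were higher in round sperm.

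Some genes were high on both sides. Of 2981 genes above the 80th percentile in both, 1186 had a 95% interval of the difference inside 2-fold, and 1004 of those were above that percentile in MEF too. At least 8-fold above MEF on both sides were 22 genes. The 12 with the largest excess over MEF were the uncharacterised gene 1700097N02Rik, Triml1, Aurkc, Epcam, Hsf2bp, Rbmxl2, Znf41-ps, Slc2a3, Psma8, Ccdc88c, Jakmip1 and Gpr19. By other probe sets 1700097N02Rik was called higher in ahES cells (2.63) and Jakmip1 higher in round sperm (-1.02), as Slc2a3 was in ahES cells. Aurkc, a kinase of meiotic divisions, was at 10.98, 10.93 and 10.95 in round sperm and at 9.94 to 11.42 in ahES cells, with a MEF mean of 3.95. Epcam, an adhesion protein of epithelia and ES cells, was at 10.67, 11.08 and 10.90 against 10.35 to 11.54 (difference 0.00, SE 0.15). Hsf2bp, a meiotic recombination factor, was at 11.43, 11.31 and 11.60 in round sperm against 11.07 to 11.17 in ahES cells, and Triml1 at 11.26, 11.10 and 11.08 against 10.13 to 10.67. The round sperm arrays thus stayed above every ahES array for Hsf2bp and Triml1, by less than 2-fold, and overlapped them for Aurkc and Epcam. With arrays centred on their medians Triml1 differed by -1.07 and was called. Diploid ES cells held these genes as well, with means of 10.11 for Aurkc, 11.55 for Epcam, 10.91 for Hsf2bp and 11.09 for Triml1.

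**Figure D5:**
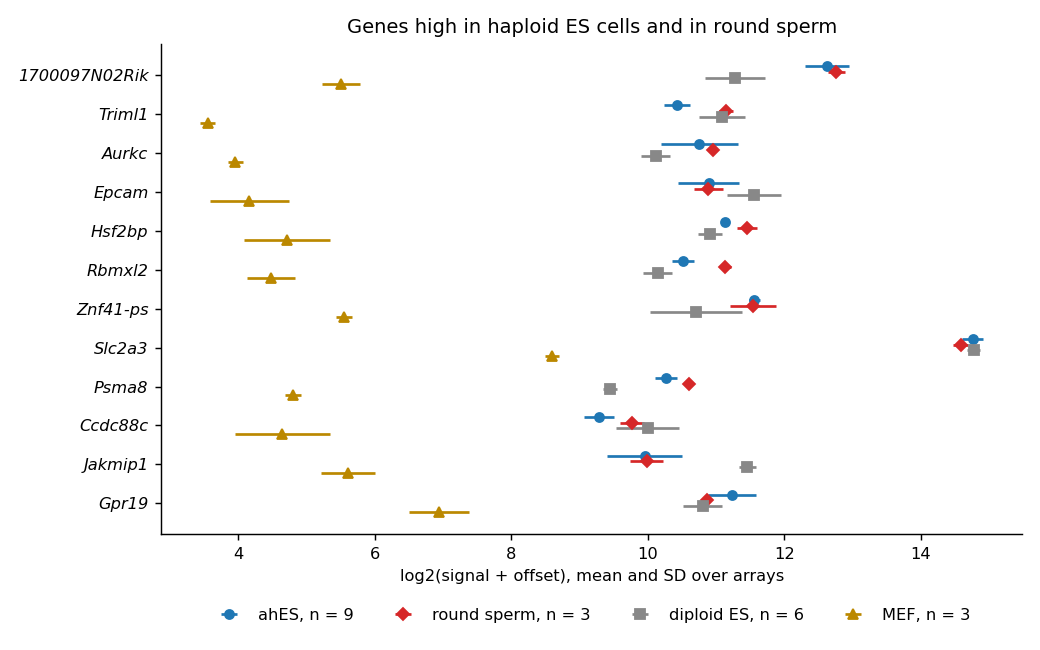
Mean level and SD over arrays, as log2(signal + offset), in ahES cells, round sperm, diploid ES cells and MEF of the 12 genes that were high in ahES cells and round sperm with the largest excess over MEF. The ahES and sperm symbols lie within 2-fold of each other for each gene, and MEF lies to the left.

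The 3 ahES lines differed from each other far less than from round sperm. Lines differed, by limma's F-test at adjusted p under 0.05 and a range of line means of at least 2-fold, for 1152 of the tested genes (7.81%). The share was 7.41% of the genes higher in round sperm (352 of 4749), 8.76% of those higher in ahES cells (528 of 6024) and 6.83% of the uncalled (272 of 3984). Among genes higher in round sperm the widest range belonged to Ldhal6b, a lactate dehydrogenase-like gene of testis, with line means of 4.08 in AH129-5, 6.77 in AH129-N1 and 7.53 in AH129-NC1 against 14.50, 14.57 and 14.68 in round sperm. AH129-5 alone was near background there. Wdr35, of ciliary transport, Lpin1, of lipid synthesis, and the non-coding RNA Pvt1 were also lowest in AH129-5, at 7.53, 6.99 and 6.19, and highest in AH129-NC1, at 10.39, 9.74 and 8.72. Cerk, a ceramide kinase gene, and Fcgr3, an Fc receptor gene, were highest in AH129-5, at 6.90 and 8.31. A second Pvt1 probe set was called higher in ahES cells (1.54, SE 0.31). For all 6 genes, by the chosen probe set, every ahES array stayed below every round sperm array.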

How the data were processed

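RNA of 21 mouse samples was measured on Affymetrix whole-genome mouse arrays. The deposited table holds 45101 probe sets as log2 values of MAS5 signals, per the submitters' processing notes and the values. The software version is not given in the sources used here. The log base follows from the values, since after unlogging every array had a trimmed mean (2% at each end) of 499.77 to 499.83, and values have a floor at 0. Array medians were 5.62 to 6.03 on the deposited log2 scale. Present calls were not used.

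From these values 34945 probe sets with 1 gene symbol were kept, and 932 with several and 9160 with none were left out. For each of 18193 genes the probe set with the highest mean level across the 21 arrays was used. An offset of 9.73 signal units (the median 20th percentile) was added before log2. A gene was tested when all 3 arrays of at least 1 of the 4 compared groups exceeded the 40th percentile of their array. limma 3.58.1 (R 4.3.3, statmod 1.5.0) was fitted with 7 group means over 21 arrays, with trend and robust moderation. The contrast was the mean of the 3 ahES line means minus round sperm. P-values were adjusted by Benjamini-Hochberg over 14757 genes, and a call needed an adjusted p under 0.05 and 2-fold. The number of arrays, 9 and 3, limits the precision. On simulated data of the same 14757 genes, 87 of 100 genes changed by 1.5 (log2) and 100 of 100 changed by 3 were recovered, with 5 false calls. The simulation changed only these genes, left all others equal between groups and gave each gene normal noise of 1 SD. In the data 73% of tested genes were called, and many were near background on their lower side. The simulated rates may therefore not hold for this comparison.

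Lists, pairs and comparison groups were chosen with earlier results of these data known, so no list count is independent evidence. Named genes are the 12 largest rises and falls without overlap of arrays, up to 4 members per list and direction (all where 5 or fewer), all pairs, key genes, 12 genes high on both sides and 6 that differed between lines. From each of these sets the text names those that describe it. Pygo2, Smarca5, Kdm3a, Bptf, Gopc, Utf1, Dnmt3l, Tekt1, Zim1 and Copg2 were named after their values were seen. Chromosomes and promoters came from RefSeq tables (GRCm38.p6). No batch is given in the labels. Alternatives were 27 planned and 1 chosen after seeing the data.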

Additional observations from a re-analysis of the deposited data

Results flagged for a closer look

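For 177 named genes the 9 ahES arrays were checked for a single distant array, which chance alone gives in about 1 of 20 groups, and 5 genes had one. Bex1 was lowest on the first AH129-5 array at 14.77, with the next array at 14.97. Tssk2 was highest on the same array at 4.98, next to 3.77, and Prps1l1 was lowest there at 3.98, next to 4.80. Gfra1 was lowest on the first AH129-NC1 array at 4.51, and Hspa1l was highest on the second AH129-NC1 array at 4.48. Apart from Bex1 these values were near background.

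For 19 named genes the distance from round sperm depended on the ahES line, by limma's F-test among line means. The widest range of line means was 3.45 for Ldhal6b. Lpin1 had a range of 2.75, Wdr35 one of 2.86, Pvt1 one of 2.53, Cerk one of 2.57 and Fcgr3 one of 2.56. Dppa3 ranged by 2.38, with means of 12.5 in AH129-5, 13.2 in AH129-N1 and 10.8 in AH129-NC1. Acrv1 ranged by 1.80, near background on average, and Rsph4a by 1.54. Dnmt3l ranged by 1.74, with its highest mean in AH129-5, and Aurkc by 1.26. Narrower ranges were those of Tdrd7 (1.19), Magea5 (1.10), Jakmip1 (1.10), Dazl (1.06), Sycp1 (1.02), Rbl2 (1.02), Lin28a (1.01) and Smc1b (1.01). For each of these genes except Rsph4a, Dnmt3l, Aurkc and Jakmip1 the ahES and round sperm arrays did not overlap.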

How the results depend on the processing

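Under 28 alternatives the count of called genes stayed within 1.5 times 10773, from 9861 with probe sets averaged by gene to 11315 without the filter on low values. Leaving out 1 array at a time gave 10765 to 10964 genes, 1048 to 1212 genes for the differences among lines and an X-autosome gap of 2.53 to 2.65. Of 4944 gene values under alternatives 4927 kept their direction and their side of the threshold, 6 lost the call, 8 gained it and 3 reversed. Gmcl1 reversed to -0.39 with the mean over probe sets and to -1.59 with the probe set highest in either compared group, an alternative chosen after seeing the data. Aurka reversed to 0.75 with the mean over probe sets. In both genes probe sets disagree. Igf2 (0.94), Trappc9 (-0.55) and Tbpl1 (-0.42) lost the call with the mean over probe sets, and Gfra1 (-0.81) and Sohlh1 (-0.97) with an offset of 32. Of 4754 called genes with at least 2 tested probe sets 610 (12.8%) had one called the other way. Crem was called at -8.00 with the probe set highest in either group.

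The gap between X-linked and autosomal medians kept its sign and moved by more than 1 SD between arrays in 7 alternatives: 2.92 with an offset of 1 signal unit, 2.24 with an offset of 32, 1.92 without the filter, 3.09 with a filter at the 60th percentile, 2.27 with the mean over probe sets, 2.69 without the AH129-5 line and 2.83 with the probe set highest in either group. Fewer low genes enter under the stricter filter, and a larger offset shrinks every difference. Lines differed for 742 genes with an offset of 32, in place of 1152. Of 2 Leydig cell genes called higher in ahES cells 1 remained with the mean over probe sets. Counts of the other lists stayed within 1.5 times.

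Over all tested genes the deviations of arrays with the same replicate number correlated at -0.03 to 0.04 over 18 pairs. Arrays with different numbers gave -0.05 to 0.04 over 36 pairs. A pairing that touches few genes cannot be seen in such correlations. With the replicate block 10775 genes were called and 10772 of the 10773 kept call and direction. Fitted on the 12 arrays with the ahES line as a random block, 10459 genes were called. Signal near background limits the folds: 1977 of the genes higher in ahES cells were near background in round sperm, and 2214 of the genes higher in round sperm were near background in ahES cells.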
